A study of Mus musculus with 4 samples.

Results

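Transcripts of histone-modifying enzymes and CHD chromatin remodelers were examined in reconstituted ovaries (rOvaries) of mice treated with or without INK128, an inhibitor of both complexes of the kinase mTOR. The genes were chosen by name. They are the Kmt2, Kdm, Setd, Hdac, Nsd and Chd families, the lysine acetyltransferases Kat2 to Kat8, and Ezh1, Ezh2, Dot1l, Ep300 and Crebbp. Antisense and pseudogene names and the Y-linked Kdm5d were left out. The rule found 69 genes among the 54021 symbols of the count table, and 61 of them had a mean level above 10 CPM (read counts scaled to the size of the library).

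The rOvaries were grafts that grew from aggregates of fetal primordial germ cells and gonadal somatic cells placed beneath the kidney capsule. Germ and somatic cells of the donors carried actin-GFP on a C57BL/6 background, and all recipients were ovariectomized young adult G2 Terc-/- females of the C57BL/6 background, which lack telomerase and serve as a model of premature ageing. RNA-seq gave 2 libraries from rOvaries of mice given INK128 and 2 from control rOvaries without INK128, all 1 month after transplantation. INK128 was given in the drinking water, at 0.75 μM per g by the labels, whereas the methods give another concentration. The labels number the libraries INK128 replicates 1 and 2 and Control replicates 1 and 3. They do not say whether the libraries came from separate animals or whether rOvaries were pooled in a library. The p-values thus measure only the spread between these samples, and treated or control rOvaries below stand for the libraries.

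Histone-modifying enzymes write and erase the acetyl and methyl groups on histone tails that go with open or closed chromatin. Acetyltransferases such as Ep300 and the Kat enzymes open chromatin at promoters and enhancers, and Hdac deacetylases reverse this. Most Kmt2 and the Setd1 enzymes methylate histone H3 on lysine 4, Nsd enzymes and Setd2 on lysine 36, Dot1l on lysine 79, and Ezh1 and Ezh2 on lysine 27, while Kdm enzymes remove methyl groups. CHD proteins use ATP to slide or evict nucleosomes. In the ovary these enzymes are known for setting the chromatin state of the growing oocyte.

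Of the 61 genes tested, 5 were lower in the INK128-treated rOvaries and 0 were higher with edgeR, where a call needed a fold change over 1.5 and a p under 0.05 after Benjamini-Hochberg adjustment across the 11758 genes whose mean CPM exceeded 10. The 5 genes were the acetyltransferases Ep300, Kat6a and Kat6b and the demethylases Kdm2a and Kdm3b. They made up 8.2% of the genes tested here, whereas 3.19% of all genes tested were called lower and 3.18% higher. At an unadjusted p below 0.05, 29 enzyme genes were lower and 2 were higher in edgeR, against 18.7% and 17.7% of all genes. The median log2 fold change of the 61 genes was −0.57, against −0.03 for all genes tested, with 49 negative and 12 positive values, where 51.4% of all genes were negative. In 41 genes (67.2%) both INK128-treated rOvaries lay below both controls, which held for 34.0% of all genes, and in 8 genes both lay above, which held for 34.5% of all genes. Added up over the 61 genes, the level was 3588 and 3538 CPM with INK128 and 4950 and 5269 CPM in controls. Since whole grafts were sequenced, fewer cells of a type and less RNA per cell cannot be told apart.

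**Figure D1:**
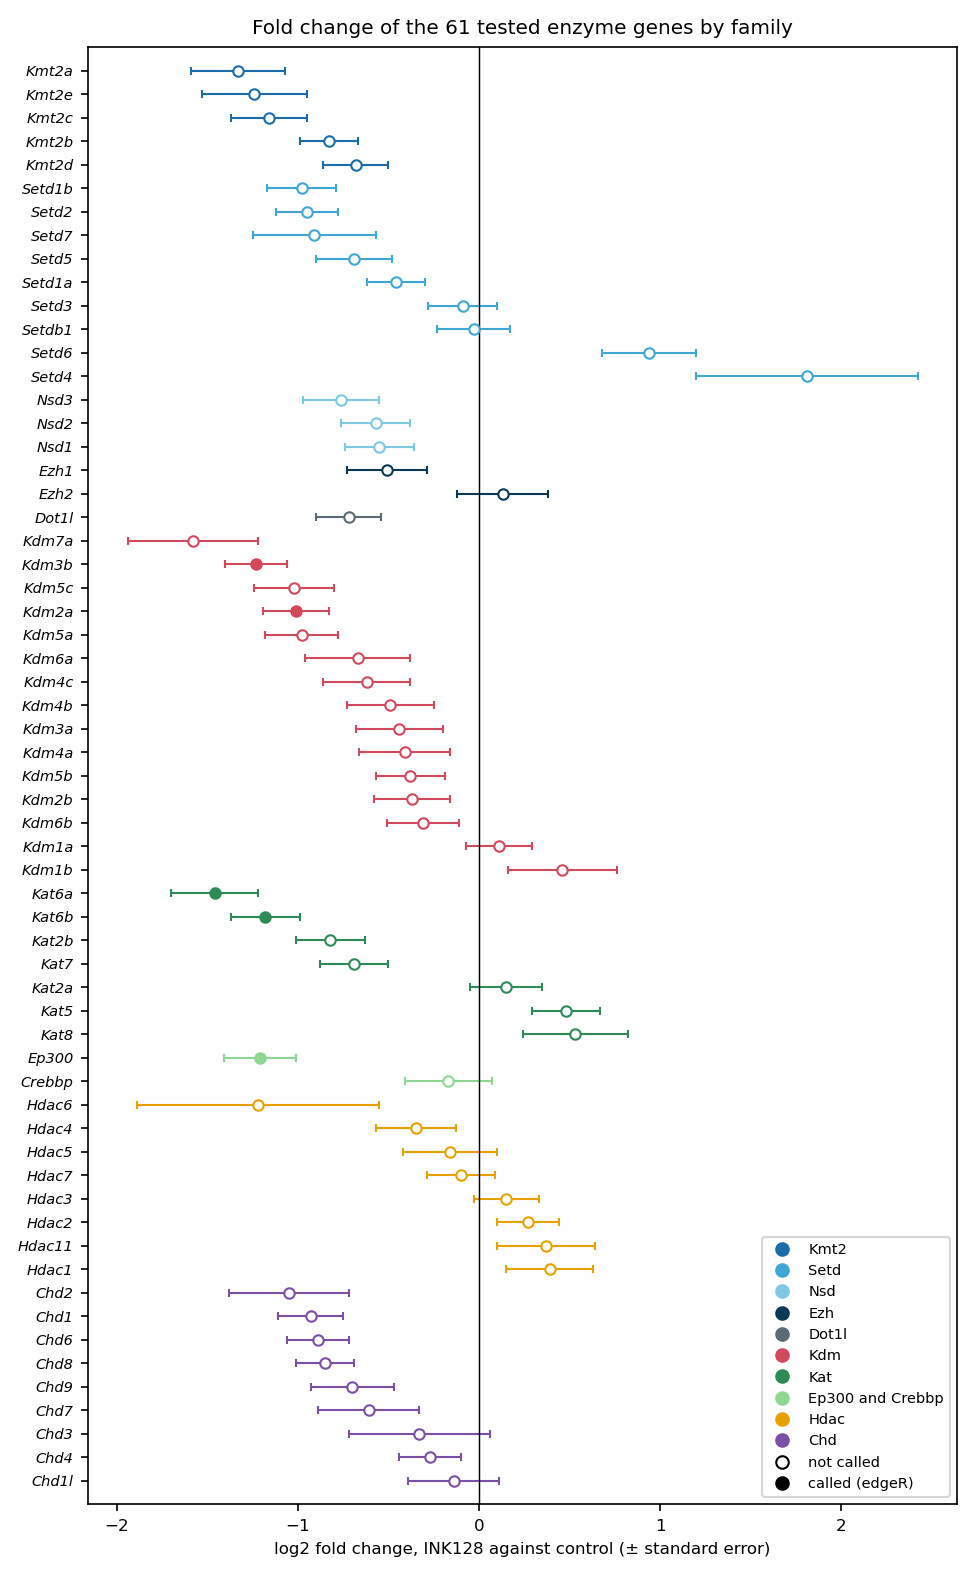
Log2 fold change of INK128-treated against control rOvaries (x axis) for each of the 61 tested genes (y axis), grouped and coloured by family. Bars are standard errors from edgeR and filled points are the 5 genes called, all of which lie left of 0, from Kat6a at −1.46 to Kdm2a at −1.01.

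The number of calls rested on the test and on the libraries. DESeq2 on the same genes called 24 enzyme genes lower, which included the 5 genes called by edgeR, and 2 higher, against 15.1% and 13.6% of all genes. At an adjusted p below 0.1, edgeR called 24 lower and 1 higher, against 13.5% and 13.1% of all genes. With scaling by library totals, which lowered the median of all genes to −0.15, the numbers were 14 and 0, against 4.93% and 2.47%, and with a filter of at least 1 count 16 and 1, against 6.2% and 3.66%. With a filter of mean CPM above 1, and with GC offsets, edgeR called 0 enzyme genes and 0.0% of all genes, and the adjusted p of Ep300 was 0.0559 and 0.0506. Limma voom called 0 of all genes at the same thresholds and placed 28 lower and 2 higher at an unadjusted p below 0.05, against 15.5% and 18.3% of all genes. The smallest adjusted p of any gene in edgeR was 0.0464, and 10 further enzyme genes with a fold change above 1.5 had an adjusted p from 0.05 to 0.06, as did 873 of all genes. The libraries held 19130209 and 23029089 counts with INK128 and 21585292 and 22812603 in controls. Over all tested genes Pearson's r was 0.98 between the INK128 replicates and 0.806 between the controls, and 1.0% and 13.8% of genes were over 2-fold apart. Among the enzyme genes, 3 (Chd3, Hdac6 and Setd4) were over 2-fold apart between the controls and 0 between the INK128-treated rOvaries. Without Control replicate 1, 33 enzyme genes were called lower and 5 higher, and without Control replicate 3, 24 were called lower and 3 higher, but the background then was 23.2% and 21.4% of all genes lower and 22.7% and 21.2% higher. Without INK128 replicate 1 or 2, edgeR called 0 enzyme genes and 0.0% of all genes.

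The controls also differed from each other in their cells. Summed levels of 8 oocyte markers were 957 and 701 CPM with INK128 and 685 CPM in Control replicate 1, but 21.5 CPM in Control replicate 3, and 7 of the 8 were above both controls with INK128. Granulosa markers (7 genes) were abundant in all libraries, between 2710 and 7560 CPM, and 6 theca and steroidogenic markers ranged from 774 CPM in Control replicate 1 to 10600 CPM in Control replicate 3. Markers of the host kidney tubule (10 genes) summed to 42.8 and 65.9 CPM with INK128 and to 429 and 926 CPM in controls, with 9 of 10 below both controls. For immune cells (11 genes) the sums were 409 and 348 CPM against 759 and 1060 CPM, with 8 of 11 below both controls. Of the kidney markers, Slc12a1 was at 0 in INK128 replicate 2. Endothelial markers (4 genes) summed to 312 and 341 CPM with INK128 and to 421 and 567 CPM in controls, with 1 of 4, Kdr, below both controls. Markers of dividing cells (6 genes) summed to between 296 and 393 CPM. Control replicate 1 held 1021 counts of 4 Y-linked genes, against 2, 0 and 0 in the other libraries, and 310 CPM of 4 Sertoli cell markers, against 28.4 to 47.7 CPM, although the methods name female fetal gonads as the source. The part of these differences in the enzyme levels was not tested.

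**Figure D2:**
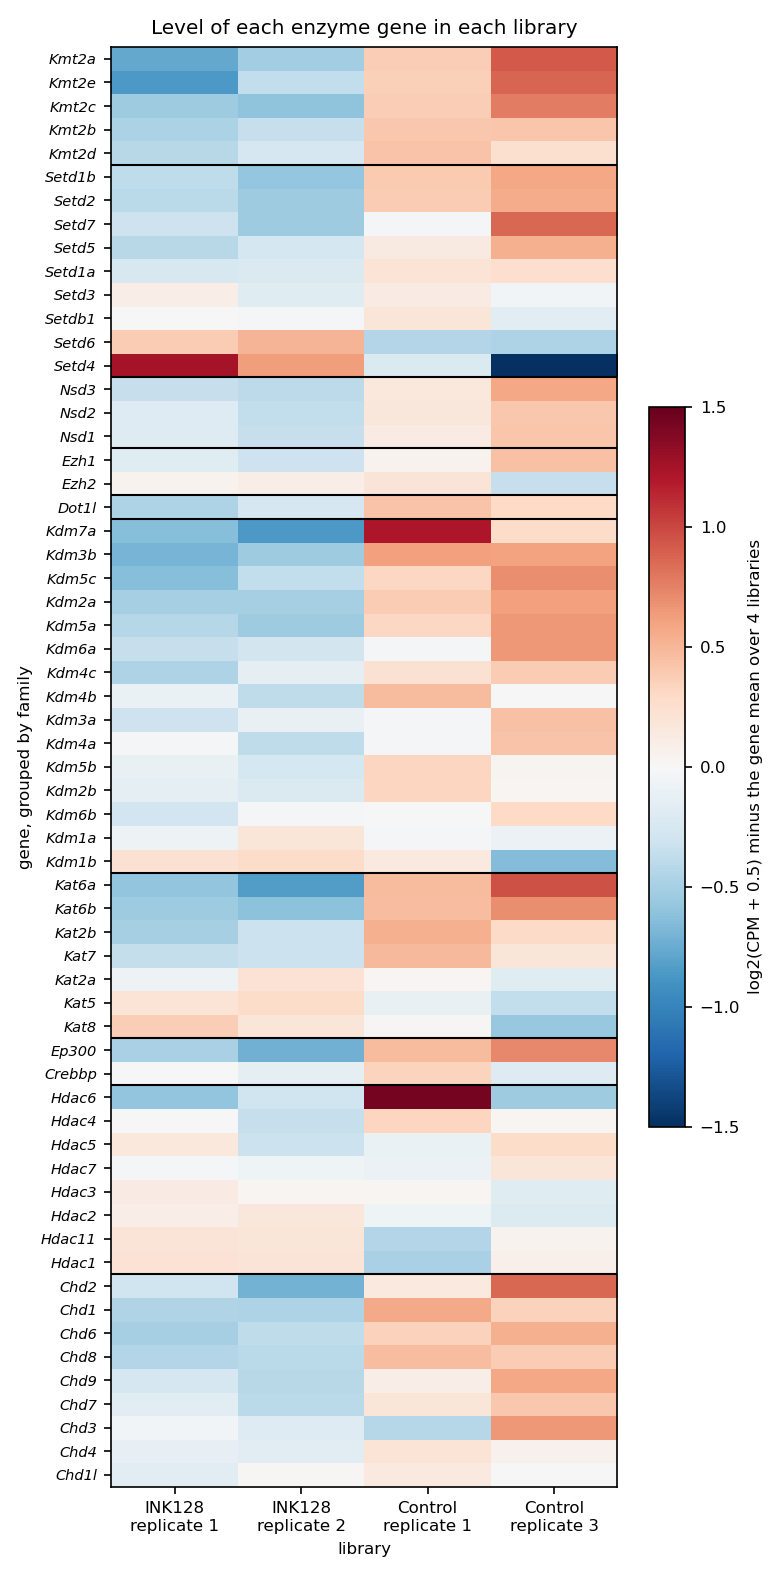
Level of each of the 61 tested genes (rows, grouped by family) in each library (columns), as log2(CPM + 0.5) minus the gene's mean over the 4 libraries, from blue (low) to red (high). Most rows are blue in both INK128 columns and red in both control columns, Setd4 shows the opposite order, and Hdac6 is high in Control replicate 1 only.

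Of the Kmt2 family, most of whose members write histone H3 lysine 4 methylation, all 5 genes were below both controls in both treated rOvaries, as were 34.0% of all genes, and none passed the edgeR thresholds. Their median log2 fold change was −1.16, and −0.40 with offsets for exon length (below). DESeq2 called all 5 lower, where it called 15.1% of all genes lower. Kmt2a, the MLL1 methyltransferase, gave 36.8 and 43.6 CPM with INK128 and 81.7 and 120 CPM in controls (log2 fold change −1.33, standard error 0.26, adjusted p = 0.0516, edgeR). Kmt2c and Kmt2d encode the enzymes that methylate enhancers. Kmt2c had 43.7 and 41.8 CPM against 82.6 and 109 CPM (log2 fold change −1.16), and Kmt2d averaged 75.6 ± 6.16 CPM (SD, n = 2) against 121 ± 10.9 CPM (log2 fold change −0.68). The 2 groups were thus well separated for Kmt2c, whose adjusted p was 0.0503 in edgeR. Kmt2b, the closest relative of Kmt2a, had 47.7 and 52.2 CPM with INK128 and 88.6 and 89.1 CPM in controls. Kmt2e, which also carries a SET domain, had an estimate of −1.24, but 9.31% of its exon length is shared with exons of Srpk2 on the other strand, and without known strand in the counting the reads of overlapping genes cannot be told apart.

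The Setd genes ran in both directions. Of 9 tested, 7 were negative, with a median of −0.46 that became 0.03 with length offsets. Setd1b, a core lysine 4 methyltransferase, had 33.0 and 28.7 CPM with INK128 and 56.7 and 64.7 CPM in controls (log2 fold change −0.98, standard error 0.19, adjusted p = 0.052, edgeR). For its relative Setd1a the log2 fold change was −0.46, and 52.3% of its exon length overlaps other counted exons. Setd2, which places trimethylation on lysine 36, had 68.2 and 62.4 CPM against 118 and 134 CPM and an adjusted p of 0.0507 in edgeR. Both genes that were higher at an unadjusted p below 0.05 belong to this family. Setd4, a methyltransferase described in quiescent stem cells, had 28.1 and 18.1 CPM with INK128 and 9.87 and 3.33 CPM in controls (log2 fold change 1.81, standard error 0.61, adjusted p = 0.114, edgeR). The controls of Setd4 were 2.96-fold apart, and its log2 fold change was 2.79 without Control replicate 1 and 1.23 without Control replicate 3. Setd6, which methylates the NF-κB subunit RelA, had 16.2 and 17.8 CPM against 8.94 and 8.81 CPM (log2 fold change 0.94, standard error 0.26, adjusted p = 0.0825, edgeR). Its exon length is only 1903 bases, and with length offsets its log2 fold change was 0.39. DESeq2 called both Setd4 (adjusted p = 0.0262) and Setd6 (adjusted p = 0.0273) higher.

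Among the writers of the other marks, the 3 Nsd genes had a median of −0.57, from −0.55 for Nsd1 to −0.76 for Nsd3, and all lay below both controls, as did 34.0% of all genes. With length offsets the median of the 3 was 0.11. Dot1l had 46.9 and 54.4 CPM with INK128 and 87.4 and 79.8 CPM in controls (log2 fold change −0.72, standard error 0.18, adjusted p = 0.068, edgeR). Ezh1 and Ezh2, the alternative catalytic subunits of Polycomb repressive complex 2, had values of opposite sign. Ezh1 had 35.2 and 32.1 CPM with INK128 and 41.4 and 54.5 CPM in controls (log2 fold change −0.51, adjusted p = 0.172, edgeR). Its value was −0.70 without Control replicate 1, −0.30 without Control replicate 3 and −0.20 with length offsets. Ezh2 had 38.1 and 39.6 CPM against 42.1 and 28.9 CPM, so that its groups overlapped (log2 fold change 0.13, standard error 0.25, adjusted p = 0.727, edgeR).

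Of the 9 acetyltransferases tested, 3 were called lower, where 3.19% of all genes were. Kat6a and Kat6b encode paralogous enzymes that acetylate histone H3 as part of BRPF complexes. Kat6a, on chromosome 8 of mm10 from 22859535 to 22943259, had 44.5 and 37.5 CPM with INK128 and 93.4 and 131 CPM in controls. This was 2.74-fold lower (log2 fold change −1.46, standard error 0.24, adjusted p = 0.0484, edgeR). Kat6b, on chromosome 14 from 21481434 to 21672478, had 27.3 and 25.7 CPM against 54.9 and 64.7 CPM and was 2.26-fold lower (log2 fold change −1.18, standard error 0.19, adjusted p = 0.0475, edgeR). Ep300 encodes the coactivator p300, which acetylates histone H3 on lysine 27 at enhancers. Ep300, on chromosome 15 from 81585351 to 81652077, had 51.7 and 43.7 CPM with INK128 and 101 and 120 CPM in controls and was 2.31-fold lower (log2 fold change −1.21, standard error 0.20, adjusted p = 0.0475, edgeR). Its paralogue Crebbp showed no such separation. Crebbp had 64.0 and 58.8 CPM with INK128 and 81.6 and 56.2 CPM in controls (log2 fold change −0.17, standard error 0.24, adjusted p = 0.635, edgeR).

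The other Kat genes went both ways. Kat2b, the PCAF subunit of SAGA-type complexes, had 38.6 and 43.8 CPM with INK128 and 79.1 and 66.8 CPM in controls (log2 fold change −0.82, standard error 0.19, adjusted p = 0.0614, edgeR). Kat2a, its GCN5 paralogue in the same complexes, had 59.1 and 72.5 CPM against 63.5 and 54.9 CPM with overlapping groups (log2 fold change 0.15, and −0.01 with length offsets). For Kat7, part of the HBO1 complexes, the log2 fold change was −0.69 (adjusted p = 0.0805, edgeR). Kat8, the MOF acetyltransferase of histone H4 lysine 16, had 30.9 and 27.0 CPM with INK128 and 24.1 and 15.9 CPM in controls (log2 fold change 0.53, standard error 0.29, adjusted p = 0.246, edgeR), with 0.86 without Control replicate 1, 0.26 without Control replicate 3 and 0.24 with length offsets. For Kat5, the TIP60 catalytic subunit, it was 0.48 (adjusted p = 0.152, edgeR), and 12.1% of its exon length overlaps Rnaseh2c. Over the 9 acetyltransferases the median was −0.69, with 6 negative and 3 positive values.

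Promoter sequences are shown for Ep300 and Crebbp, the paralogues with unlike values, for Kat6b, which was called lower, and for Setd4, which had the highest estimate. The promoter table of RefSeq (GRCm38.p6, windows of 300 bases around an annotated start) held an entry for 49 of the 69 genes. A GC box (GGGCGG, either strand) was found in 61.2% of these and in 35.9% of all 27025 promoters, a CCAAT box (CCAAT, either strand) in 46.9% and 37.9%, the E-box CACGTG in 6.12% and 7.24%, and TATAAA (either strand) in 4.08% and 14.2%. The median number of CG dinucleotides was 23, against 7 over all promoters. The set of all promoters was not restricted to genes tested here, so these comparisons are with an unlike set. These letters are a description of the windows and not evidence of binding. The windows of Ep300 (chr15:81585964-81586263, plus strand), Crebbp (chr16:4213355-4213654, minus strand), Kat6b (chr14:21499520-21499819, plus strand) and Setd4 (chr16:93603766-93604065, minus strand) lie at annotated RefSeq starts. The outermost GENCODE start lies within the window for Setd4 but outside it for the other genes, and for Kat6b it is far upstream, at 21481434. The windows are given 5′ to 3′ with any of these motifs in capitals, overlapping GC boxes running together.
Ep300: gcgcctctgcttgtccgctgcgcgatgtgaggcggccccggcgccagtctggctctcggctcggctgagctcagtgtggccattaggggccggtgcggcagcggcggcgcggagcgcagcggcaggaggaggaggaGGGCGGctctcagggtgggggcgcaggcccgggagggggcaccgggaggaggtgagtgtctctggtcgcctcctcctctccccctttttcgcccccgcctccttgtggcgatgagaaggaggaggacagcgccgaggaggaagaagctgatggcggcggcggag
Crebbp: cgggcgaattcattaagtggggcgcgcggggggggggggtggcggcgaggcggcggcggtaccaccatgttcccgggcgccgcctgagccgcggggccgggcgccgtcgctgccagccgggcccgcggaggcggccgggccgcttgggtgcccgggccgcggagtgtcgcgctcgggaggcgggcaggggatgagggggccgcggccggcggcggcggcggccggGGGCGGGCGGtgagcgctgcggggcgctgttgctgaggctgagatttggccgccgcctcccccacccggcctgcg
Kat6b: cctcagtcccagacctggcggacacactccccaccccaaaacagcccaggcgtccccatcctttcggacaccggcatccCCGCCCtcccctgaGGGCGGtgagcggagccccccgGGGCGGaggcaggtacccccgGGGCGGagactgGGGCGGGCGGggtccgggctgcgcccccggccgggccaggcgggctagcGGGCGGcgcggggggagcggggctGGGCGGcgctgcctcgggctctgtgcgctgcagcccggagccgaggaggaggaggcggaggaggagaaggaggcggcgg
Setd4: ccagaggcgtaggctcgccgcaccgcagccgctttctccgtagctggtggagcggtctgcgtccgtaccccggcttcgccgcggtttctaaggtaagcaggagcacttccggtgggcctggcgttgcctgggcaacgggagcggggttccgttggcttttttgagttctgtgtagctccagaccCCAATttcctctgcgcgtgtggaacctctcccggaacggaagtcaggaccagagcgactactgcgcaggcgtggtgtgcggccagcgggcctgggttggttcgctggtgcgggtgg
The pair with unlike changes, Ep300 and Crebbp, had 1 and 2 GC boxes and 30 and 49 CG dinucleotides in these windows. Kat6b had 8 GC boxes, and Setd4 had 0 GC boxes and 1 CCAAT box.

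Among the erasers of histone methylation, 13 of 15 tested Kdm genes had negative values, with a median of −0.49, and 2 were called lower, where 51.4% of all genes were negative and 3.19% were called lower. With length offsets the median was −0.29, with 11 of 15 negative. Kdm3b, a demethylase of histone H3 lysine 9, lies on chromosome 18 from 34777047 to 34838660. It had 40.4 and 45.3 CPM with INK128 and 101 and 99.7 CPM in controls, and this 2.34-fold lower level gave the smallest adjusted p among the enzyme genes (log2 fold change −1.23, standard error 0.17, adjusted p = 0.0464, edgeR). Kdm2a, a lysine 36 demethylase that binds CpG islands, lies on chromosome 19 from 4314419 to 4398285. It had 64.7 and 64.8 CPM against 119 and 141 CPM and was 2.01-fold lower (log2 fold change −1.01, standard error 0.18, adjusted p = 0.0489, edgeR). The paralogues of both were closer to the controls. The log2 fold change was −0.44 for Kdm3a (adjusted p = 0.254, edgeR) and −0.37 for Kdm2b (adjusted p = 0.263, edgeR), and the Kdm2b value was 0.12 with length offsets. Without Control replicate 1 these were −0.66 for Kdm3a and −0.21 for Kdm2b, and without Control replicate 3 they were −0.18 and −0.51.

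Kdm7a, a demethylase of lysines 9 and 27, had an estimate of −1.58 (standard error 0.36, adjusted p = 0.061, edgeR), the lowest of the family with all libraries. Kdm7a had 39.6 and 33.7 CPM with INK128 and 144 and 75.1 CPM in controls, and the controls were 1.91-fold apart. Without Control replicate 1 its log2 fold change was −1.04, which was above that of Kdm3b (−1.22), and without Control replicate 3 it was −1.97. The lysine 4 demethylases Kdm5a (log2 fold change −0.98, adjusted p = 0.0528, edgeR) and Kdm5c (log2 fold change −1.02, adjusted p = 0.0577, edgeR) lay close to the threshold. Kdm5c had 61.9 and 74.7 CPM with INK128 and 120 and 157 CPM in controls. Kdm6a, the X-linked demethylase of lysine 27, had 31.3 and 32.9 CPM against 39.2 and 63.1 CPM (log2 fold change −0.67, adjusted p = 0.166, edgeR), with −0.97 without Control replicate 1 and −0.29 without Control replicate 3. Kdm1a and Kdm1b, which encode the flavin-dependent demethylases LSD1 and LSD2, were the only Kdm genes above 10 CPM with positive values. The scarcer Kdm8 had 0.25. Kdm1a had 87.4 and 105 CPM with INK128 and 91.6 and 86.9 CPM in controls (log2 fold change 0.11, and −0.02 with scaling by library totals). Kdm1b, which is needed for DNA methylation at imprinted genes in oocytes, had 96.8 and 99.6 CPM against 91.0 and 52.2 CPM (log2 fold change 0.46, standard error 0.30, adjusted p = 0.327, edgeR). Its log2 fold change was 0.91 without Control replicate 1 and 0.11 without Control replicate 3, and 9.19% of its exon length overlaps Dek. The X-linked genes here are Kdm5c, Kdm6a, Hdac6 and Hdac8, and the Y-linked transcripts in Control replicate 1 were given above.

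None of the Hdac deacetylases passed the test. Of 8 tested, 4 were negative and 4 positive, and their median was 0.03, which became −0.09 with scaling by library totals and −0.14 with GC offsets, but 0.22 with length offsets (7 of 8 positive), 0.20 with a mean CPM above 1 and 0.19 with at least 1 count. The class I enzymes Hdac1, Hdac2 and Hdac3 all had positive values that did not pass the test. Hdac1 had 108 and 106 CPM with INK128 and 66.1 and 97.4 CPM in controls (log2 fold change 0.39, standard error 0.24, adjusted p = 0.294, edgeR), and its log2 fold change was 0.14 without Control replicate 1 and 0.70 without Control replicate 3. Hdac2 had 150 and 157 CPM against 133 and 121 CPM (log2 fold change 0.27, standard error 0.17, adjusted p = 0.295, edgeR), and Hdac3 had a log2 fold change of 0.15. Hdac6, a cytoplasmic enzyme that acts on tubulin, had the lowest estimate of the family at −1.22 (standard error 0.67, adjusted p = 0.251, edgeR). That value came from Control replicate 1 alone, with 147 CPM, since Control replicate 3 had 37.1 CPM and the INK128-treated rOvaries 35.6 and 43.7 CPM. Without Control replicate 1 it was 0.10.

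All 9 Chd genes above 10 CPM had negative values, with a median of −0.70 (−0.16 with length offsets), while the scarcer Chd5 had 1.6. With length offsets Chd3, Chd4 and Chd9 turned to 0.06, 0.07 and 0.13, and without Control replicate 3 Chd3 turned to 0.31. None of the 9 passed the edgeR thresholds, while DESeq2 called 4 of them lower, against 15.1% of all genes. Chd1, a remodeler bound to methylated lysine 4, had 36.6 and 36.5 CPM with INK128 and 74.9 and 64.0 CPM in controls (log2 fold change −0.93, standard error 0.18, adjusted p = 0.0516, edgeR). Chd8 had 80.7 and 82.9 CPM against 152 and 144 CPM (log2 fold change −0.85, standard error 0.16, adjusted p = 0.0507, edgeR). In both genes the replicates lay close together and the groups apart. Chd2 had the lowest estimate at −1.05 (adjusted p = 0.0987, edgeR), but its controls were 43.7 and 72.4 CPM. Of its exon length, 19.3% overlaps other counted exons. Without Control replicate 3 the log2 fold change of Chd2 was −0.64, above that of Chd1 (−1.04). With length offsets it was −0.42, also above that of Chd1 (−0.54). The NuRD remodeler Chd4 had 284 and 277 CPM with INK128 and 356 and 323 CPM in controls (log2 fold change −0.27, standard error 0.17, adjusted p = 0.302, edgeR). Per kilobase of exon, Chd4 had the highest group mean of all 69 genes in both groups, with 35.0 CPM per kb with INK128 and 42.3 in controls. Hdac2, at 34.3 and 28.4 CPM per kb, and Hdac1, at 31.1 and 23.7 CPM per kb, came next with INK128. In INK128 replicate 2 alone, Hdac2 lay above Chd4 per kilobase. Chd1l, a remodeler in DNA repair, had the value nearest to 0, at −0.14.

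Chd5, Hdac8, Hdac9, Hdac10, Kdm8 and Setdb2 had a mean CPM of 10 or less and were tested among the 17631 genes above 1 CPM, and none passed, with adjusted p-values from 0.202 for Hdac9 to 0.764 for Setdb2 (edgeR). Log2 fold changes were 1.6 (Chd5), 0.62 (Hdac10), 0.36 (Hdac8), 0.25 (Kdm8), −0.16 (Setdb2) and −1.12 (Hdac9). Chd5, a remodeler known from neurons and testis, had 1.66 and 1.70 CPM with INK128 and 1.06 and 0.0843 CPM in controls, the last of these from 2 counts. Kdm4d and Kdm4dl were below 1 CPM in every library and were not tested. They lie side by side on chromosome 9, Kdm4dl is annotated as an unprocessed pseudogene, and counts of such near-identical copies are uncertain.

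The enzyme genes have long transcripts. Their exon length, the union of all annotated exons, had a median of 8705 bases over the 61 genes and of 4468 bases over all tested genes, and 53 of the 61 were longer than the median tested gene. Across the 61 genes the log2 fold change and log2 exon length had a Pearson correlation of −0.65, and across 11700 tested genes of −0.31. These are descriptions across genes, which share the 4 libraries. Among genes under 4000 bases the median log2 fold change was 0.37 for all genes and 0.44 for the 6 enzyme genes. From 4000 to 8000 bases the medians were −0.18 and −0.22 (20 enzyme genes), from 8000 to 12000 bases −0.48 and −0.78 (14 enzyme genes), from 12000 to 16000 bases −0.62 and −0.98 (9 enzyme genes), and above 16000 bases −0.81 and −0.73 (12 enzyme genes). The enzyme genes were thus lower than all genes of their length from 8000 to 16000 bases by these medians, and 32 of 61 lay below the median of their own range. Genes called lower were 0 of 6 enzyme genes under 4000 bases, where 1.71% of all genes were called lower, 0 of 20 from 4000 to 8000 bases (2.51%), 1 of 14 from 8000 to 12000 bases (Kat6a, 5.68%), 3 of 9 from 12000 to 16000 bases (Ep300, Kdm2a and Kdm3b, 13.0%) and 1 of 12 above 16000 bases (Kat6b, 13.1%). All 6 enzyme genes under 4000 bases, Kat2a, Kat5, Kat8, Hdac1, Hdac11 and Setd6, had positive values.

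**Figure D3:**
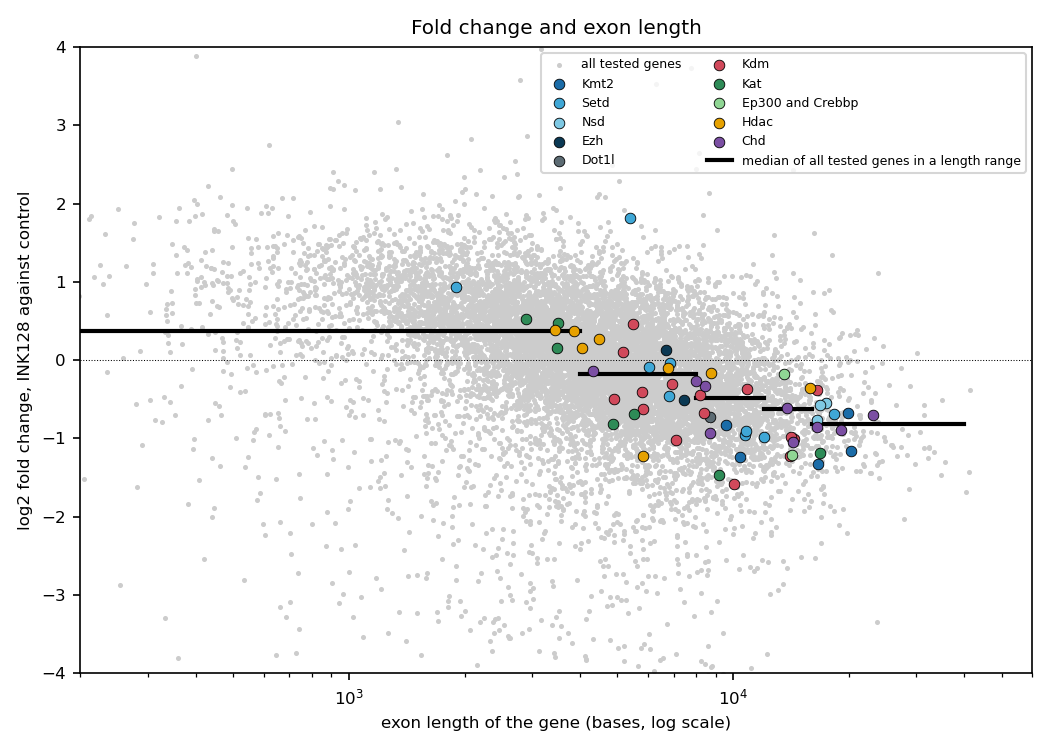
Log2 fold change (y axis) against exon length in bases (x axis, log scale) for all tested genes (grey) and the enzyme genes, coloured by family. Black bars are medians of all genes in 5 length ranges, which go from 0.37 to −0.81, and the enzyme genes lie on both sides of them, while 89 genes with values beyond 4 in either direction are outside the axis.

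When each library was given an offset that followed its own trend with exon length, edgeR called 0 of all genes. The median of the enzyme genes was then −0.08 and that of all genes −0.04, with 35 negative and 26 positive values, against 52.5% negative over all genes. At an unadjusted p below 0.05, 12 enzyme genes were lower and 1, Setd4, was higher, against 14.5% and 12.2% of all genes. Of these 12, the lowest values belonged to Kdm7a (−1.14), Kat6a (−1.04, adjusted p = 0.0931, edgeR) and Kat2b (−0.79), and they also held Kdm3b (−0.62), Ep300 (−0.60) and Kat6b (−0.49). Kdm2a, the remaining gene called without offsets, had −0.38 and was not among the 12. Setd4 had 1.90 (adjusted p = 0.151, edgeR). Kat2b and Setd4 were thus almost unmoved by the offset, whereas Kmt2d (0.06), Nsd1 (0.15), Chd4 (0.07) and Crebbp (0.41) changed sign. Among the families with 3 or more tested genes, Kat had the lowest median with offsets (−0.49), followed by Kmt2 (−0.40), Kdm (−0.29) and Chd (−0.16), while Setd, Nsd and Hdac had 0.03, 0.11 and 0.22.

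**Figure D4:**
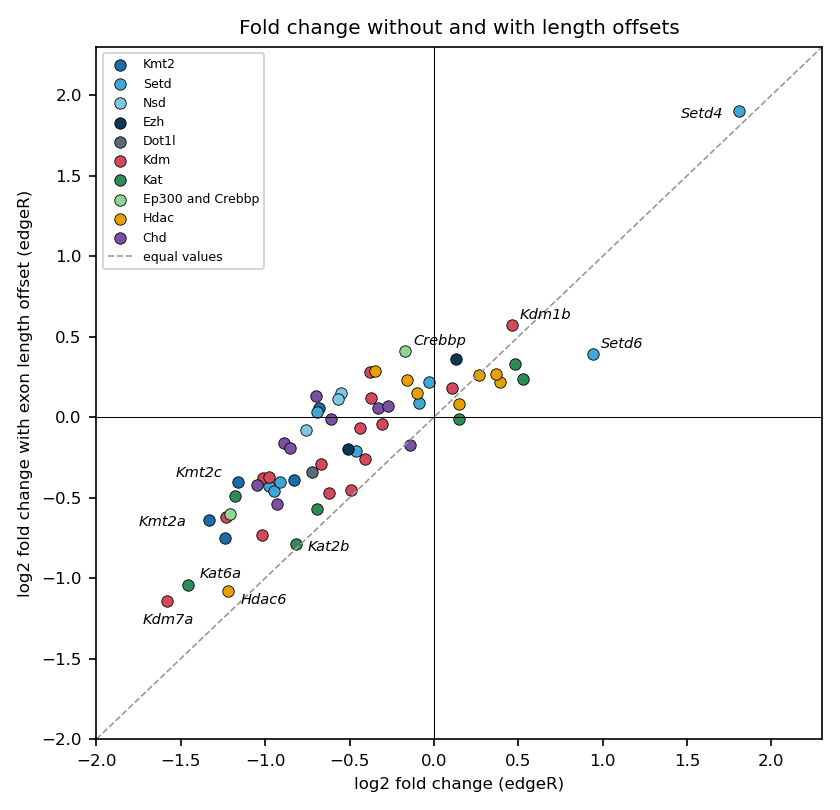
Log2 fold change with exon length offsets (y axis) against that without (x axis) for the 61 genes, coloured by family, with the line of equal values. Most genes lie above the line in its negative part, and Kdm7a, Kat6a, Hdac6 and Kat2b are the lowest with offsets, at −1.14, −1.04, −1.08 and −0.79.

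Ratios of paralogues within a library do not depend on its total or on its scaling factor. The log2 ratio of Ep300 to Crebbp, whose exon lengths of 14273 and 13540 bases are alike, was −0.31 and −0.43 with INK128 and 0.30 and 1.09 in controls. For Kat2b to Kat2a, with 4867 and 3480 bases, it was −0.61 and −0.73 against 0.32 and 0.28, a difference of −0.97 with close replicates. Kat2b is the longer gene, and with length offsets the log2 fold changes of Kat2b and Kat2a were −0.79 and −0.01. Per kilobase of exon, the level of Kat2a was above that of Kat2b in both groups, with 18.9 and 8.47 CPM per kb with INK128 and 17.0 and 15.0 CPM per kb in controls. Kdm3b to Kdm3a had ratios of 0.32 and 0.29 with INK128 and 1.36 and 0.87 in controls, but Kdm3b is the longer gene (14095 and 8225 bases). The ratios of Ezh1 to Ezh2 were −0.11 and −0.30 against −0.02 and 0.92, close to each other but for Control replicate 3. Those of Hdac1 to Hdac2 and of Kdm1a to Kdm1b overlapped between the groups, and those of all other pairs compared did not. With 2 samples in each group, an exact two-sided permutation test cannot give a p below 0.333, so these ratios are descriptions.

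**Figure D5:**
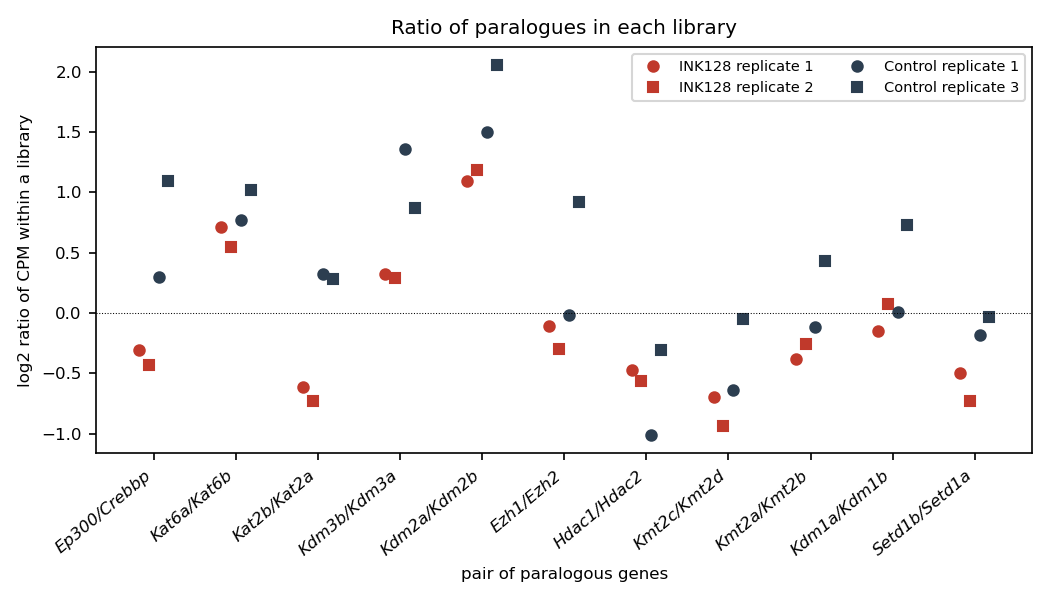
Log2 ratio of the CPM of 11 pairs of paralogous genes (x axis) in each library (y axis), with INK128-treated rOvaries in red and controls in dark blue. Ep300/Crebbp and Kat2b/Kat2a are below 0 in both INK128-treated rOvaries and above 0 in both controls.

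Genes for the partner proteins of these enzymes were listed from textbook complexes, and the medians of these lists lay between −0.23 and 0.19, against −0.57 for the enzyme genes. These lists have shorter genes, with median exon lengths from 3653 to 7203 bases against 8705, and with length offsets their medians lay between −0.18 and 0.12, against −0.08 for the enzyme genes. Over all genes 3.19% were called lower and 3.18% higher. The 12 COMPASS subunits that serve the Kmt2 and Setd1 enzymes had a median of −0.05 and 0 calls with edgeR. DESeq2 called 2 of them lower and 1 higher, against 15.1% and 13.6% of all genes. Of 8 tested Polycomb repressive complex 2 partners (median 0.08) and 10 NuRD subunits (median 0.19), the histone-binding protein gene Rbbp7, which belongs to both, was called higher, with 1680 and 1340 CPM with INK128 and 642 and 540 CPM in controls (log2 fold change 1.35, standard error 0.22, adjusted p = 0.0476, edgeR). Among 26 partners of Hdac1 to Hdac3 and Kdm1a (median −0.23), Arid4b of the SIN3 complex was called lower (log2 fold change −1.18, adjusted p = 0.0464, edgeR). The 52 partners of the acetyltransferases had a median of −0.03, and Kansl1, Brpf3 and Jade1 were called lower with edgeR (5.77% of the list). DESeq2 called 8 of the 52 lower and 11 higher, against 15.1% and 13.6% of all genes. Brpf3 and Jade1 encode scaffold proteins of Kat6 and Kat7 complexes, with log2 fold changes of −1.35 (adjusted p = 0.0475, edgeR) and −1.49 (adjusted p = 0.0464, edgeR), and with length offsets of −0.97 and −1.13. Of 39 other histone-modifying enzymes (median 0.08), Ash1l, a lysine 36 methyltransferase, was called lower at −1.16 (adjusted p = 0.0486, edgeR). Scaling by library totals turned the medians of the Polycomb partners and of these other enzymes to −0.04, and upper quartile scaling turned those of the COMPASS and acetyltransferase partners to 0.02 and 0.03. Without Control replicate 1 the COMPASS median was 0.11 and the NuRD median 0.40, without INK128 replicate 1 the NuRD median was 0.09, and without Control replicate 3 that of the other enzymes was −0.10.

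Genes for other ATP-dependent remodeler complexes, both ATPases and accessory subunits, resembled the Chd genes above 10 CPM in sign. Of 30 tested, 26 were negative with a median of −0.55, and 4 were called lower, namely Ep400, Btaf1, Bptf and Baz1a, where 51.4% of all genes were negative and 3.19% were called lower. Their log2 fold changes ran from −0.98 for Ep400 (adjusted p = 0.0487, edgeR) to −1.30 for Baz1a (adjusted p = 0.0464, edgeR). Their median exon length was 9552 bases, close to that of the enzyme genes, and with length offsets the median was −0.17. The gene with the highest value was Smarcd3, a SWI/SNF subunit, at 1.03 (adjusted p = 0.0509, edgeR).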

How the data were processed

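RNA-seq of 4 rOvary libraries was used. According to the methods and the submitters' processing notes, the NEBNext Ultra kit was used for the libraries, Trimmomatic for trimming, HISAT2 for alignment to mm10 and featureCounts for counting per gene. Tool versions and the strand setting are not given in the sources used here. The deposited values are the authors' unnormalized counts for each gene symbol and library. Columns were matched to samples by title. Library sums were 19130209 to 23029089 counts, and a floor of 3 counts equals 0.127 to 0.161 CPM, which covers counting error only.

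CPM were computed with TMM factors (0.944 to 1.05). The 11758 genes with a mean CPM above 10 were tested with edgeR 4.0.16 (quasi-likelihood F-test, common dispersion 0.0949) in R 4.3.3, with Benjamini-Hochberg adjustment. Calls needed a fold change over 1.5 at an adjusted p under 0.05. The 6 scarcer enzyme genes with a mean CPM above 1 were tested among 17631 genes. DESeq2 1.42.0 (the study's test), limma 3.58.1 (voom), other scalings and filters, offsets for exon length and GC content, other thresholds and leaving out each library were alternatives. Exon length and positions came from GENCODE release 21 (mm10), in which 53447 of 54021 symbols matched and 99.5% of tested genes had a length. Offsets were lowess trends (span 0.3) on log length or GC content. The trends followed the deviation of each library's log2 CPM (from edgeR, with a prior count) from the gene mean.

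Named genes were those called, the highest and lowest of each family of 3 or more tested genes, and Ezh1, Ezh2, Dot1l, Ep300, Crebbp, Kmt2d, Kdm1a, Kdm6a, Kdm5c, Hdac1, Hdac2 and Chd4. In the partner lists the genes called and the extremes were eligible. All other genes named, the promoters shown and the paralogue pairs were chosen after their values were seen. The genes and lists as a whole were chosen with earlier results of these data known. The Ezhip gene was not analysed here.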

Additional observations from a re-analysis of the deposited data

How the results depend on the processing

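Of 46 enzyme genes named or compared, 35 kept their sign in all 13 alternative fits. The number called lower was 5, and it was 24 with DESeq2, 14 with scaling by library totals, 16 with a filter of at least 1 count and 24 at an adjusted p below 0.1. It was 0 with limma voom, with a mean CPM above 1, with length offsets and with GC offsets, and in the last 3 of these edgeR called 0 of all genes. Leaving out each library in turn gave 0 to 33 lower and 0 to 5 higher, with 0 without INK128 replicate 1 or 2, 33 and 5 without Control replicate 1, and 24 and 3 without Control replicate 3, where a lone sample is assumed to vary like the pair. The number called higher, 0, was 2 with DESeq2, 1 with at least 1 count and 1 at an adjusted p below 0.1. The median of −0.57 became −0.69 with library totals, which moved the median of all genes to −0.15, −0.46 with a mean CPM above 1, −0.47 with at least 1 count and −0.08 with length offsets, and ranged from −0.66 without Control replicate 1 to −0.48 without Control replicate 3. Signs turned with length offsets for Kmt2d (0.06), Nsd1 (0.15), Crebbp (0.41), Chd3 (0.06), Chd4 (0.07), Chd9 (0.13), Kat2a (−0.01) and Kdm2b (0.12), with GC offsets for Kat2a (−0.08), with library totals for Kdm1a (−0.02), without Control replicate 1 for Hdac6 (0.10) and Crebbp (0.13), without Control replicate 3 for Ezh2 (−0.12) and Chd3 (0.31), and without INK128 replicate 2 for Kdm1a (−0.04) and Kat2a (−0.01). With each library left out in turn these genes ranged from −1.89 to 0.10 (Hdac6), −0.41 to 0.13 (Crebbp), −0.12 to 0.43 (Ezh2), −0.77 to 0.31 (Chd3), −0.04 to 0.22 (Kdm1a) and −0.01 to 0.28 (Kat2a). The cause of these changes was not tested. No paired analysis was possible because the groups share only replicate number 1.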
